A study of Mus musculus with 37 samples.

Results

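The genes described here were 10 core parts of the NF-kB pathway. They were chosen by name and not by a cutoff on their values, with earlier results of these data known. They are the subunits Rela, Rel, Nfkb1, Relb and Nfkb2, the inhibitors Nfkbia, Nfkbib and Nfkbie, and the kinases Ikbkb and Chuk. They were read from a table of 48795 counted genes, and all 10 were among the 16799 genes with enough counts for testing. The RNA came from whole hippocampus of male mice, with 3 Kdm1a-ifKOs (ifKO in the labels) and 3 control littermates (WT in the labels), 1 poly-A library per mouse. Kdm1a-ifKOs carried floxed Kdm1a alleles and the Camk2a-creERT2 transgene on a C57BL/6J background, controls lacked the transgene, and both genotypes received tamoxifen in adulthood. The age at dissection of these hippocampi is not given in the sources used here. The Camk2a promoter drives recombination in principal neurons of the forebrain, so interneurons, glia, vessels and blood cells keep Kdm1a, and RNA from all of them is in each library. CTCF ChIA-PET, which counts paired-end tags (PETs) between genome sites bound by the insulator protein CTCF, was available from 1 library of sorted nuclei of Camk2a+ neurons (genotype WT in the labels). By the study's methods these nuclei were tagged in a separate cross of Camk2a-creERT2 with a CAG-Sun1/sfGFP reporter, given tamoxifen, so unlike the RNA-seq controls these mice carried the transgene.

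NF-kB factors are dimers of Rel-homology proteins that wait in the cytoplasm until a signal frees them to enter the nucleus. In the canonical branch, ligands such as TNF or interleukin-1 activate the kinase IKKb (Ikbkb), which marks the IkB inhibitors for destruction and releases dimers of RelA or c-Rel with p50, the product of Nfkb1. In the alternative branch, receptors such as that for BAFF stabilize the kinase NIK, which acts through IKKa (Chuk) on p100, the product of Nfkb2, to yield p52 dimers with RelB. In brain the pathway is known from microglia, astrocytes and endothelium during inflammation, and from neurons in plasticity and survival. Several of its own inhibitors and subunits are classical targets of the pathway, so their RNA is often read as a sign of its activity.

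The promoters of those feedback genes are shown because the NF-kB binding site, the kB consensus, sits close to their start. RefSeq promoters (GRCm38.p6, 250 bases before to 50 after the start of transcription) matched 7 of the 10 genes; Relb, Nfkb1 and Ikbkb had none in the table. The kB consensus, searched on both strands, was present in 4 of these 7 genes. By promoter window it was in 6 of their 9, beside 4.505% of all 32851 promoters. It is found in the windows of Rel (chr11:23770920-23771219, minus strand), Nfkbia (chr12:55492598-55492897, minus strand), Nfkbie (chr17:45555450-45555749, plus strand) and Nfkb2 (chr19:46304487-46304786, plus strand, the first of its 3 windows). Each is written 5′ to 3′ with the matches in capitals; matches on opposite strands overlap in Rel and Nfkb2.
Rel: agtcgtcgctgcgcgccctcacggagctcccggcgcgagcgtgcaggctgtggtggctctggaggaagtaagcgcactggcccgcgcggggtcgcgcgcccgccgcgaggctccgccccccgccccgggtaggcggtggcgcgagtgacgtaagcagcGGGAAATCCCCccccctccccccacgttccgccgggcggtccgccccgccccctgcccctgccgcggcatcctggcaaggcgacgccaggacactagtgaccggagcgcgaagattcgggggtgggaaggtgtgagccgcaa
Nfkbia: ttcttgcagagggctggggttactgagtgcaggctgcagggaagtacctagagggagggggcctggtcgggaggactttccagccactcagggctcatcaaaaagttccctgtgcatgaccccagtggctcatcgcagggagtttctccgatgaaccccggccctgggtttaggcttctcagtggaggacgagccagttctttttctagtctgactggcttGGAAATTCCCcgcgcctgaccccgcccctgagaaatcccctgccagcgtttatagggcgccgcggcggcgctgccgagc
Nfkbie: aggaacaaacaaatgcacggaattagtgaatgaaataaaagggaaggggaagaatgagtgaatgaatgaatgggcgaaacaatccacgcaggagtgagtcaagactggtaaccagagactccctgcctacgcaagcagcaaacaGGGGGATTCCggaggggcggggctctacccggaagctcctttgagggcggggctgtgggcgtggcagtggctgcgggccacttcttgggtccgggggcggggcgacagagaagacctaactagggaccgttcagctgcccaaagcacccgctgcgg
Nfkb2: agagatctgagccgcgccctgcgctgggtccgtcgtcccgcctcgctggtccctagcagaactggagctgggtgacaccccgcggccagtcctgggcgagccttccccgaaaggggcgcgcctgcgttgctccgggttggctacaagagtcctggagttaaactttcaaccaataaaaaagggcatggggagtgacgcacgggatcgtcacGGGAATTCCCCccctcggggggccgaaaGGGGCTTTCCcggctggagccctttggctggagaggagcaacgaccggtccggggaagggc
The match in Nfkbia began 29 bases before the start, that in Nfkbie 106 bases, and the overlapping matches in Rel 92 and 91 bases before it. In Nfkb2 matches began 39, 38 and 11 bases before the start. The looser pattern GGGNNNNNCC was in 6 of the 7 genes, Nfkbib being the exception. By window it was in 8 of 9, but also in 50.79% of all promoters. A match of letters is a description of the window and was not read as a bound site.

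Kdm1a itself checked the labels. Its counts were 1521, 1545 and 1481 in controls and 764, 726 and 748 in Kdm1a-ifKOs, a fall by 1.07 on the log2 scale (SE 0.0559, adjusted p = 6.24e-08). The Kdm1a-ifKOs did not overlap with the controls and kept 0.477 of the control level. Cells outside the driver's reach keep the intact gene. By the study's methods recombination removes only some exons and leaves an mRNA with an early stop codon, so recombined cells may also give counts. The source of the remaining counts was not tested. Camk2a, the gene of the driver and a marker of excitatory neurons, had a log2FC of 0.05 (SE 0.0535, adjusted p = 0.584). Total counts ran from 18985542 to 19469947 per library, and control replicate 3 and Kdm1a-ifKO replicate 2 stood apart from the other libraries on the second principal component, which held 16.9% of the variance.

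Levels are given as TPM, counts per exon length scaled to a common total (mean ± SD, n = 3). The length sums all annotated exons of a gene, 1.61 kb for Nfkbia, 12.1 kb for Nfkb1 and 19.1 kb for Ikbkb. It is not the length of the transcripts present, and the order of the genes depends on it. By counts scaled to library size alone (CPM), Ikbkb led at 66.8, beside 24.7 for Nfkbia. In TPM the inhibitor Nfkbia was the highest of the 10 genes in control hippocampus, at 60.9 ± 7.83 TPM. The kinase gene Chuk followed at 42.9 ± 4.09 TPM. Nfkbib at 29.5 ± 4.62 TPM and Rela at 26.8 ± 2.62 TPM came next, and their libraries overlapped. Thus the subunit with the highest TPM was Rela, the transactivating partner of the canonical dimer. In CPM, without the division by length, Nfkb1 at 26.4 was above Rela at 20.7, so the most abundant subunit transcript is not settled. Ikbkb stood at 13.9 ± 0.722 TPM, Relb at 8.70 ± 0.194 TPM and Nfkb1 at 8.68 ± 0.270 TPM, the last pair overlapping. Nfkbie, Rel and Nfkb2 were lowest, at 3.61 ± 0.241, 3.17 ± 0.406 and 3.16 ± 0.339 TPM, and no neighbours among these 3 were separate in controls. In Kdm1a-ifKOs Relb rose to 12.5 ± 1.06 TPM, apart from Nfkb1 at 8.51 ± 0.388 TPM and just below Ikbkb at 13.6 ± 0.418 TPM.

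**Figure D1:**
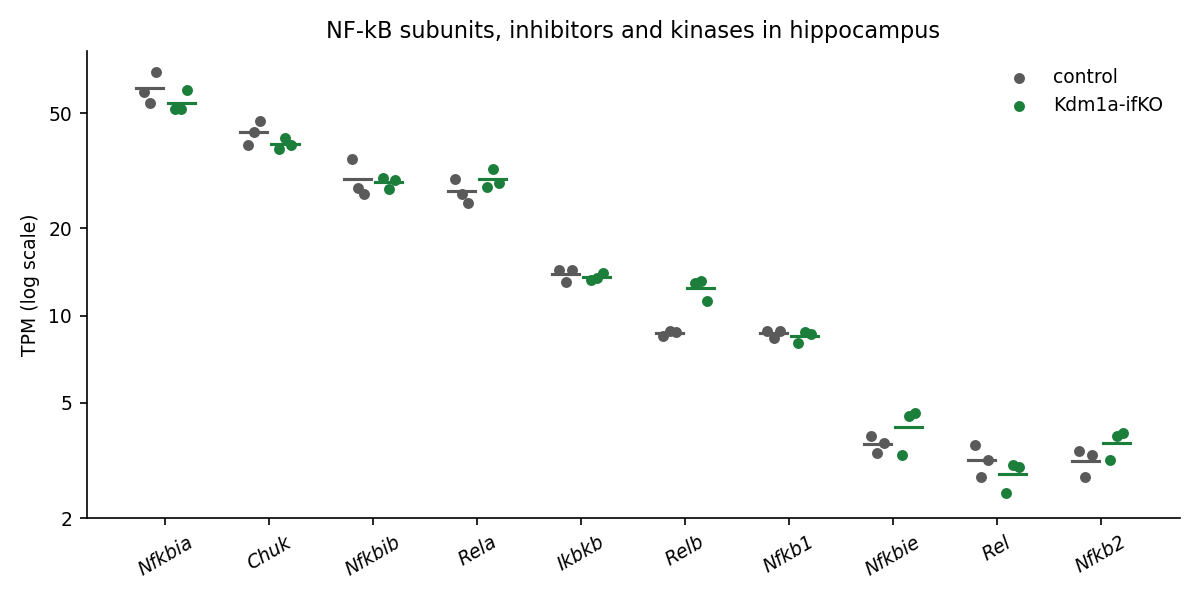
Level of each gene in every library on a log axis of TPM, with controls in grey, Kdm1a-ifKOs in green and short lines for group means. Relb is the gene whose Kdm1a-ifKO points, 11.3 to 13.2 TPM, all sit above its control points, 8.49 to 8.86 TPM.

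Of the 10 genes, Relb alone passed the test between genotypes, and it was higher in Kdm1a-ifKOs. Over all tested genes 8.85% passed (adjusted p under 0.05), with 6.04% higher and 2.82% lower, so 1 call in 10 genes was near the background. The median log2FC of the 10 genes was -0.04, beside -0.0034 over all tested genes. Relb (ENSMUSG00000002983, chr7:19606217-19629438, minus strand) encodes the DNA-binding and activating partner of the alternative branch. Its counts were 158, 165 and 160 in controls and 247, 250 and 214 in Kdm1a-ifKOs. All Kdm1a-ifKO libraries were above all controls. Such groups without overlap, in either direction, were found for 30% of all tested genes. The log2FC was 0.51 (SE 0.105, adjusted p = 0.00845), a 1.43-fold difference with a 95% confidence interval (CI) from 1.22 to 1.67. Relb stayed past the threshold under all 13 alternative settings, with log2FCs from 0.48 to 0.58 and the highest adjusted p, 0.0437, without Kdm1a-ifKO replicate 1. Without both libraries that stood apart, its log2FC was 0.49 (adjusted p = 0.0245). No other annotated gene overlaps Relb.

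Nfkb2, whose p52 product pairs with RelB, had counts of 75, 61 and 71 in controls and 71, 86 and 88 in Kdm1a-ifKOs. The groups overlapped, and the log2FC of 0.20 (95% CI -0.16 to 0.55, adjusted p = 0.503) left room for a change as large as that of Relb at this depth. Nfkb2 shares 299 exon bases with Psd, a neuronal gene on the opposite strand with a mean of 556 CPM (counts scaled to library size) in controls, and the counting's strand setting is not given in the sources used here. Without strand, reads of the shared bases cannot be assigned to either gene.

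The canonical subunits did not pass the test. Rela, the main activating subunit, had 437, 388 and 354 counts in controls and 417, 483 and 432 in Kdm1a-ifKOs. Only Kdm1a-ifKO replicate 2 lay above all controls, and the log2FC was 0.13 (95% CI -0.06 to 0.32, adjusted p = 0.391). Rel, which encodes c-Rel and is best known from lymphocytes, had 128, 99 and 111 counts against 89, 111 and 110. Its groups overlapped, with a log2FC of -0.17 (95% CI -0.50 to 0.15, adjusted p = 0.528). Nfkb1, the source of p50, had 512, 484 and 500 counts against 476, 520 and 510. Its interval was narrow, with a log2FC of -0.04 (95% CI -0.19 to 0.11, adjusted p = 0.791).

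None of the inhibitors or kinases passed. Nfkbia encodes IkBa, the inhibitor that NF-kB itself induces and that ends a response, and had 456, 418 and 526 counts in controls and 406, 406 and 474 in Kdm1a-ifKOs. The Kdm1a-ifKO mean was the lower one, but the groups overlapped and the log2FC was -0.17 (95% CI -0.39 to 0.05, adjusted p = 0.333). Nfkbib, which encodes IkBb, had 362, 286 and 268 counts against 316, 291 and 312 (log2FC -0.04, 95% CI -0.27 to 0.19, adjusted p = 0.860), and shares 42 exon bases with Sirt2 and 314 with Ccer2 on the opposite strand. Nfkbie, which encodes IkBe, had 56, 49 and 52 counts against 49, 67 and 69. Replicates 2 and 3 of the Kdm1a-ifKOs were above the controls and replicate 1 was not, with a log2FC of 0.19 (95% CI -0.22 to 0.60, adjusted p = 0.581). The 4 genes with a kB consensus in the windows printed above had log2FCs of both signs, and none passed. Over all tested genes 8.85% passed, so no call among 4 genes is near the background. Relb, the called gene, had no window to search, and nothing about kB sites is read from this set. Ikbkb, the canonical kinase, had 1310, 1196 and 1285 counts against 1236, 1257 and 1313 (log2FC -0.04, 95% CI -0.17 to 0.09, adjusted p = 0.726). Chuk, the kinase that serves both branches, had 944, 1054 and 1121 counts against 934, 1023 and 968. Its groups overlapped, with a log2FC of -0.14 (95% CI -0.30 to 0.02, adjusted p = 0.263).

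**Figure D2:**
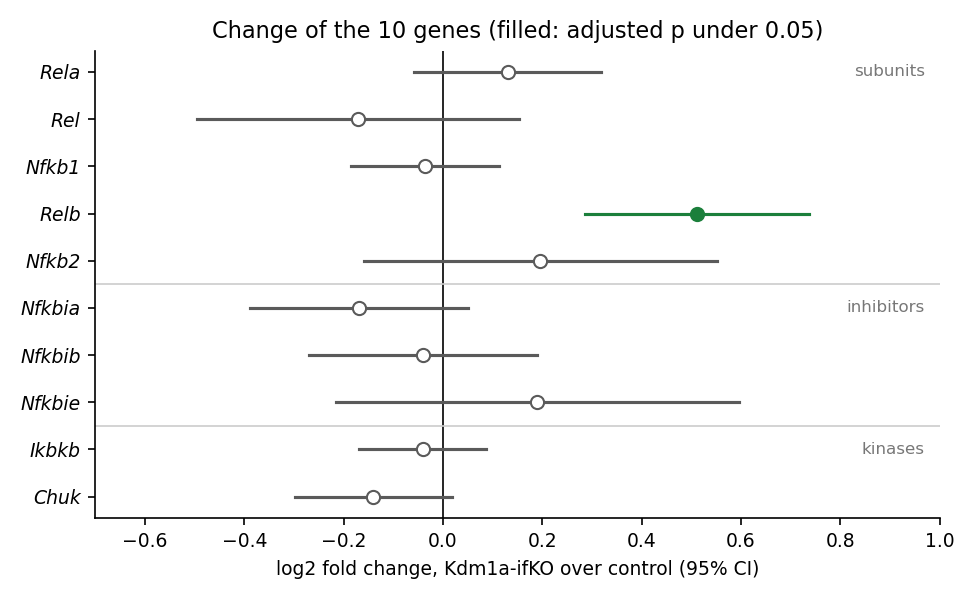
Log2FC of Kdm1a-ifKOs over controls with its 95% CI for the 5 subunits, 3 inhibitors and 2 kinases. The interval of Relb, 0.29 to 0.74, lies above 0, and those of the other 9 genes include 0.

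The balance between branches was compared as ratios of TPM within a library, so the weight of a gene in a sum depends on its summed exon length. The ratio of Relb to Rela was 0.286, 0.336 and 0.357 in controls and 0.468, 0.409 and 0.392 in Kdm1a-ifKOs. Every Kdm1a-ifKO was above every control, with a difference of 0.38 on the log2 scale (exact two-sided permutation p = 0.1, the smallest that 3 against 3 libraries allow). The ratio of summed alternative subunits (Relb and Nfkb2) to summed canonical ones (Rela, Rel and Nfkb1) was 0.283, 0.310 and 0.330 in controls and 0.423, 0.386 and 0.376 in Kdm1a-ifKOs, again without overlap (log2 difference 0.36, exact permutation p = 0.1). The 3 inhibitors summed to 1.81, 1.73 and 2.05 times the 5 subunits in controls and to 1.56, 1.37 and 1.70 times in Kdm1a-ifKOs. That ratio was lower in every Kdm1a-ifKO (log2 difference -0.28, exact permutation p = 0.1). With 3 libraries a group, this exact test cannot go below 0.1 for any ratio. All 3 ratios contain Relb, the gene already called, so they are not results separate from that call. In controls Relb was at 8.70 TPM beside 3.16 TPM for Nfkb2 in the alternative sum.

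Beyond the core genes, 54 other genes of the pathway were listed by role, with earlier results of these data known. Of the 54, 53 were counted and 46 tested. Among these, 6 were higher in Kdm1a-ifKOs and 0 lower by edgeR, beside 6.04% higher and 2.82% lower over all tested genes, and their median log2FC was 0.08. Without control replicate 2 or without Kdm1a-ifKO replicate 3 the count was 3. Of 9 ligands listed, 3 were tested and none passed, with log2FCs from -0.08 for Tnfsf13b, which encodes BAFF, to 0.26 for Tnfsf12, which encodes TWEAK. Tnf had 0 to 3 counts in any library, and Cd40lg was at 0 in all 6.

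Among the 10 receptors, 3 were higher. Tnfrsf1b, the TNF receptor that membrane-bound TNF engages best and that microglia express strongly, had 89, 93 and 95 counts in controls and 153, 170 and 162 in Kdm1a-ifKOs (log2FC 0.76, SE 0.123, adjusted p = 0.0017). Tnfrsf1a, the widely expressed TNF receptor with a death domain, had 154, 170 and 171 counts against 204, 268 and 240 (log2FC 0.48, SE 0.118, adjusted p = 0.0235). Tnfrsf13c encodes the BAFF receptor of B cells, an activator of the alternative branch. It went from 4, 4 and 5 counts to 18, 20 and 15 (log2FC 1.95, SE 0.383, adjusted p = 0.00642). These groups did not overlap in any of the 3 receptors. The call of Tnfrsf1a was lost in 5 of 13 settings, without control replicate 1 or 2, without Kdm1a-ifKO replicate 2 or 3 and without the 2 libraries that stood apart (adjusted p 0.0526 to 0.0798). Tnfrsf1b and Tnfrsf13c were called under all 13 settings.

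Of the 23 adaptors and other kinases, 2 were higher. Tradd, which docks on the death domain of TNF receptor 1, had 111, 107 and 90 counts against 152, 143 and 153 (log2FC 0.49, SE 0.128, adjusted p = 0.0293). Traf3, which holds NIK in check and so restrains the alternative branch, had 2171, 2112 and 2079 counts against 2466, 2466 and 2529 (log2FC 0.18, SE 0.0484, adjusted p = 0.0321). The call of Tradd was lost in 7 of 13 settings (DESeq2, the replicate block, without control replicate 2 or 3, without Kdm1a-ifKO replicate 1 or 3, and without both libraries that stood apart), with adjusted p up to 0.103. That of Traf3 was lost in 6, the block and without any 1 library other than control replicate 3, with adjusted p up to 0.162. Map3k14, the gene of NIK, had a log2FC of 0.08 (SE 0.148, adjusted p = 0.785) and is named after its value was seen. Of the 12 brakes and atypical inhibitors, 10 were tested and 1 passed: Tnip2, an A20-binding inhibitor of NF-kB, with 524, 598 and 569 counts against 809, 783 and 746 (log2FC 0.42, SE 0.0705, adjusted p = 0.00212). Tnfaip3, the gene of A20 and a classical feedback target, is also named after its value was seen, with a log2FC of 0.01 (SE 0.143, adjusted p = 0.982).

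Genes known as NF-kB targets in other cells were listed apart, 25 in all, also with earlier results of these data known. Of the 25, 24 were counted and 14 tested. By edgeR 6 were higher and 0 lower, beside 6.04% and 2.82% over all tested genes, with a median log2FC of 0.35, and 3 were called without control replicate 1. Csf1, the growth factor of microglia and macrophages, had 694, 693 and 627 counts in controls and 882, 952 and 978 in Kdm1a-ifKOs (log2FC 0.44, SE 0.0647, adjusted p = 0.00086). Ccnd1, the cell-cycle regulator cyclin D1, had 908, 897 and 722 against 1281, 1151 and 1304 (log2FC 0.52, SE 0.0833, adjusted p = 0.00215). Irf1, an interferon-response transcription factor, had 225, 260 and 221 against 314, 369 and 354 (log2FC 0.51, SE 0.096, adjusted p = 0.00502). In each the groups were separate, and these 3 were called in all 13 settings. The adhesion molecule gene Vcam1 (log2FC 0.42, adjusted p = 0.0177), the apoptosis inhibitor Cflar (0.30, adjusted p = 0.0312) and the early-response gene Ier3 (0.67, adjusted p = 0.0487) passed as well. Vcam1 lost the call without control replicate 1 or Kdm1a-ifKO replicate 3 (adjusted p 0.0546 and 0.0597). Cflar lost it in DESeq2 and without any 1 library other than control replicate 3 (adjusted p up to 0.118). Ier3 lost it in DESeq2, with the block, without control replicate 1 or 2, without Kdm1a-ifKO replicate 1 or 2 and without both libraries that stood apart (adjusted p up to 0.164).

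The inflammatory cytokines and chemokines on the target list were too low to test. Il6 had 1 to 3 counts in any library, Csf2 was at 0 in all 6, and Ccl2 had 1 to 3. Icam1 and Lcn2 are named after their values were seen. Icam1, an adhesion molecule, had 53, 72 and 43 counts against 73, 137 and 108 and did not pass (log2FC 0.87, SE 0.246, adjusted p = 0.0517), although it did in 7 of 13 settings, DESeq2 among them (adjusted p = 0.0222). Lcn2, an acute-phase gene of reactive astrocytes, was not tested, and its counts of 2, 44 and 2 against 1, 183 and 8 were set by replicate 2 of either group.

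**Figure D3:**
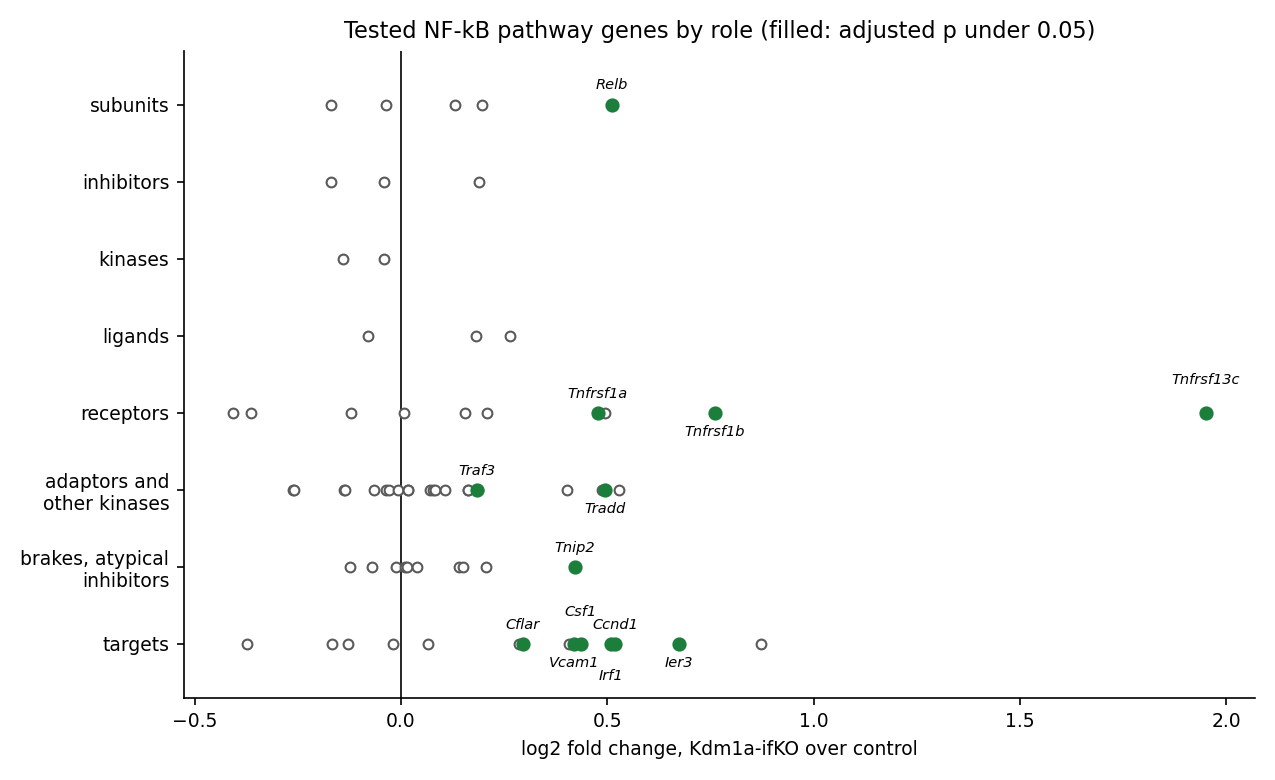
Log2FC of every tested gene of the pathway and of its targets, in rows by role, with genes past an adjusted p of 0.05 filled and named. All filled points lie to the right of 0, from 0.18 for Traf3 to 1.95 for Tnfrsf13c.

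The summed markers of microglia and of astrocytes were also higher in Kdm1a-ifKOs. All 12 microglial markers had a positive log2FC, with a median of 0.33, and 5 passed: Cx3cr1, Tmem119, Csf1r, C1qb and Siglech. Each of these calls was lost without control replicate 1, without control replicate 2 or without Kdm1a-ifKO replicate 3, and those of Tmem119, Csf1r and C1qb also without both libraries that stood apart (adjusted p up to 0.254). Their summed level was 449 to 488 CPM in controls and 514 to 665 CPM in Kdm1a-ifKOs. Of 7 astrocyte markers 3 were higher, Slc1a3, S100b and Sox9, and the list summed to 1728 to 1863 CPM in controls and 2032 to 2230 CPM in Kdm1a-ifKOs. The calls of Slc1a3 and S100b were lost without control replicate 2 or Kdm1a-ifKO replicate 3, and that of Slc1a3 also without replicate 1 of either group (adjusted p up to 0.096). By library, the microglial sum was 514, 595 and 665 CPM in Kdm1a-ifKO replicates 1, 2 and 3. Relb was at 12.7, 12.7 and 11.0 CPM in the same libraries, Tnfrsf1a at 10.5, 13.6 and 12.3 CPM and Tnfrsf1b at 7.87, 8.63 and 8.32 CPM. The part of glia in the changes of Relb, of the receptors and of the targets was not tested, and in bulk tissue more cells of a type cannot be told apart from more RNA per cell.

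Fewer calls were made in the other lists. Among the excitatory neuron markers Neurod6 was lower (log2FC -0.36), and the list summed to 6559 to 6926 CPM in controls and 6509 to 7159 CPM in Kdm1a-ifKOs. Vip was the lower one of 6 interneuron markers (-0.46), a call lost without Kdm1a-ifKO replicate 1 or 3 (adjusted p 0.063 and 0.0548). No marker passed among 7 of endothelium (Kdr -0.15 to Cdh5 0.17; 213 to 216 CPM in controls, 204 to 251 in Kdm1a-ifKOs), 6 of oligodendrocytes (Mog -0.05 to Mbp 0.15), 2 of their precursors (Pdgfra -0.01, Cspg4 0.22) and 4 of ependyma (Ccdc153 -0.30 to Rarres2 0.22). The same held for 3 of border macrophages, from Lyve1 at 0.70 to Mrc1 at 0.85 on the log2 scale, which summed to 2.21 to 6.29 CPM against 3.55 to 11.7 CPM. Of 6 markers of mural cells and fibroblasts Pdgfrb was higher (0.39). Of 6 choroid plexus markers 5 were tested and Kl was higher (1.28), whereas Ttr, the defining one, had a log2FC of -1.49 (adjusted p = 0.337). The choroid plexus list summed to 36.3 to 60.8 CPM in controls and 65.7 to 71.6 CPM in Kdm1a-ifKOs, without overlap, and Kl alone held 22.5 to 26.9 CPM and 56.4 to 60.6 CPM of this. Of 8 lymphocyte markers 2 were tested, Cd4 (log2FC 0.66) and Ptprc (0.54), with neither passing. The B cell gene Ms4a1 had 0 to 2 counts in any library, and the T cell gene Cd3e 0 to 2. The part of B cells in the change of Tnfrsf13c was not tested.

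**Figure D4:**
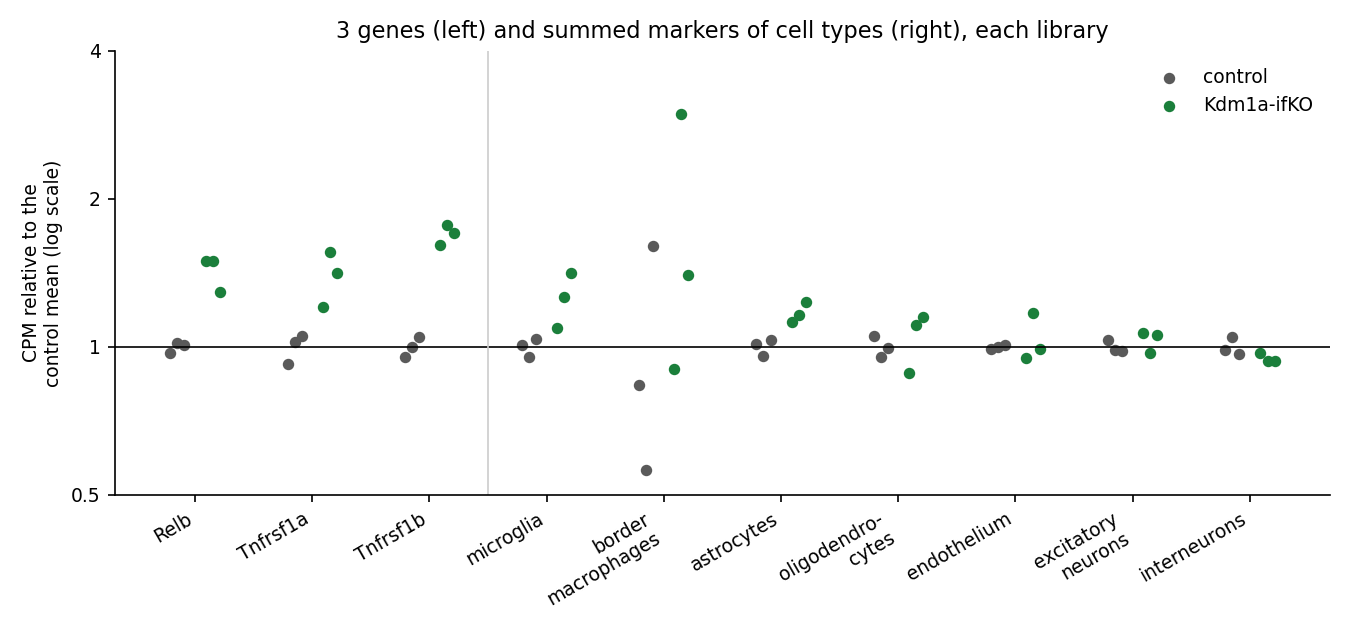
CPM of Relb, Tnfrsf1a and Tnfrsf1b and summed CPM of marker lists in each library, divided by the control mean, on a log axis with controls in grey and Kdm1a-ifKOs in green. The 3 genes and the sums for microglia and astrocytes are above the controls in every Kdm1a-ifKO, whereas the other sums drawn overlap between genotypes.

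Genes next to the 10 loci were read to see whether a change at Relb was shared by its surroundings. Within 100 kb lay 68 tested neighbours, of which 8 were higher and 0 lower by edgeR, beside 6.04% and 2.82% over all tested genes. Within 50 kb 3 of 38 were called, and within 250 kb 13 of 134. Near Relb, 2 of 13 neighbours passed. Apoe, the main lipid carrier of astrocytes, lies 66.7 kb away and had a log2FC of 0.30 (SE 0.0498, adjusted p = 0.00205). Nkpd1, 81.2 kb away, rose from 8, 4 and 12 counts to 22, 23 and 24 (log2FC 1.46, SE 0.363, adjusted p = 0.024), a call lost in DESeq2, without control replicate 1 or 2 and without Kdm1a-ifKO replicate 1 or 3 (adjusted p up to 0.0846).

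The remaining calls lay near genes that did not pass themselves. Beside Nfkbie, Slc29a1, which encodes the nucleoside transporter ENT1, had 349, 390 and 337 counts in controls and 737, 734 and 722 in Kdm1a-ifKOs (log2FC 0.98, SE 0.0713, adjusted p = 1.38e-06). Capn11, a calpain gene best known from testis, had 8, 4 and 11 against 24, 70 and 39 (log2FC 2.46, SE 0.475, adjusted p = 0.0108). Beside Rela, Sipa1 (log2FC 0.54, adjusted p = 0.00141) and Ltbp3 (0.39, adjusted p = 0.00309) were higher, and beside Nfkbib, Fbxo17 was (1.26, adjusted p = 0.00211). Aldoart2, 72.6 kb from Nfkbia, went from 11, 11 and 6 counts to 23, 26 and 24 (log2FC 1.33, adjusted p = 0.0193), a call lost in DESeq2, without control replicate 3, without any 1 Kdm1a-ifKO and without both libraries that stood apart (adjusted p up to 0.0987).

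In these Kdm1a-intact neurons, labelled WT, CTCF loops had an anchor within 10 kb of 7 of the 10 genes, beside 56.8% of all tested genes. They numbered 41 loops with 451 PETs, out of 27786 loops with a median of 5 PETs. This is 1 library without replicates, and no loops from Kdm1a-ifKOs were analysed here. Relb had 2 loops. One, with 13 PETs and a span of 28.2 kb, reached Zfp296, Clasrp and Gm26890, none of which passed. The other, with 5 PETs and 214.6 kb, reached Ercc2 and Klc3. Klc3, a kinesin light chain gene, had 21, 18 and 16 counts in controls and 72, 61 and 64 in Kdm1a-ifKOs (log2FC 1.79, SE 0.212, adjusted p = 0.000128).

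Nfkbie had the most loops, 14 with 221 PETs, the strongest with 134 PETs to an anchor at Aars2 and Tcte1. Slc29a1 and Capn11 were also partners, through loops of up to 10 and of 3 PETs. The near anchors of these loops lay over Slc35b2 or Hsp90ab1, past the end of Nfkbie. No anchor overlapped the body of Nfkbie or of Nfkbia, so these loops are near the 2 genes rather than on them. Nfkbia had 8 loops, the strongest with 74 PETs to Ppp2r3c and 1110008L16Rik, and an anchor of a loop with 14 PETs touched the upstream end of its promoter window printed above without reaching the kB match. Nfkb2 had 8 loops, the strongest with 18 PETs to Fbxl15, Mfsd13a, Cuedc2, Psd and Gm26792, and 4 anchors lay over its printed window. Nfkb1 had 5 loops, the strongest with 5 PETs to Bdh2 and Cenpe, Nfkbib had 3, among them one of 3 PETs to Fbxo17, and Chuk 1. Rela, Rel and Ikbkb had no anchor within 10 kb, although Rela lay inside 3 loops and Rel inside 8. Altogether 31 genes lay within 10 kb of the far anchors, and 4 of them (12.9%, beside 8.85% of all tested genes) passed, all higher: Klc3, Slc29a1, Capn11 and Fbxo17.

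**Figure D5:**
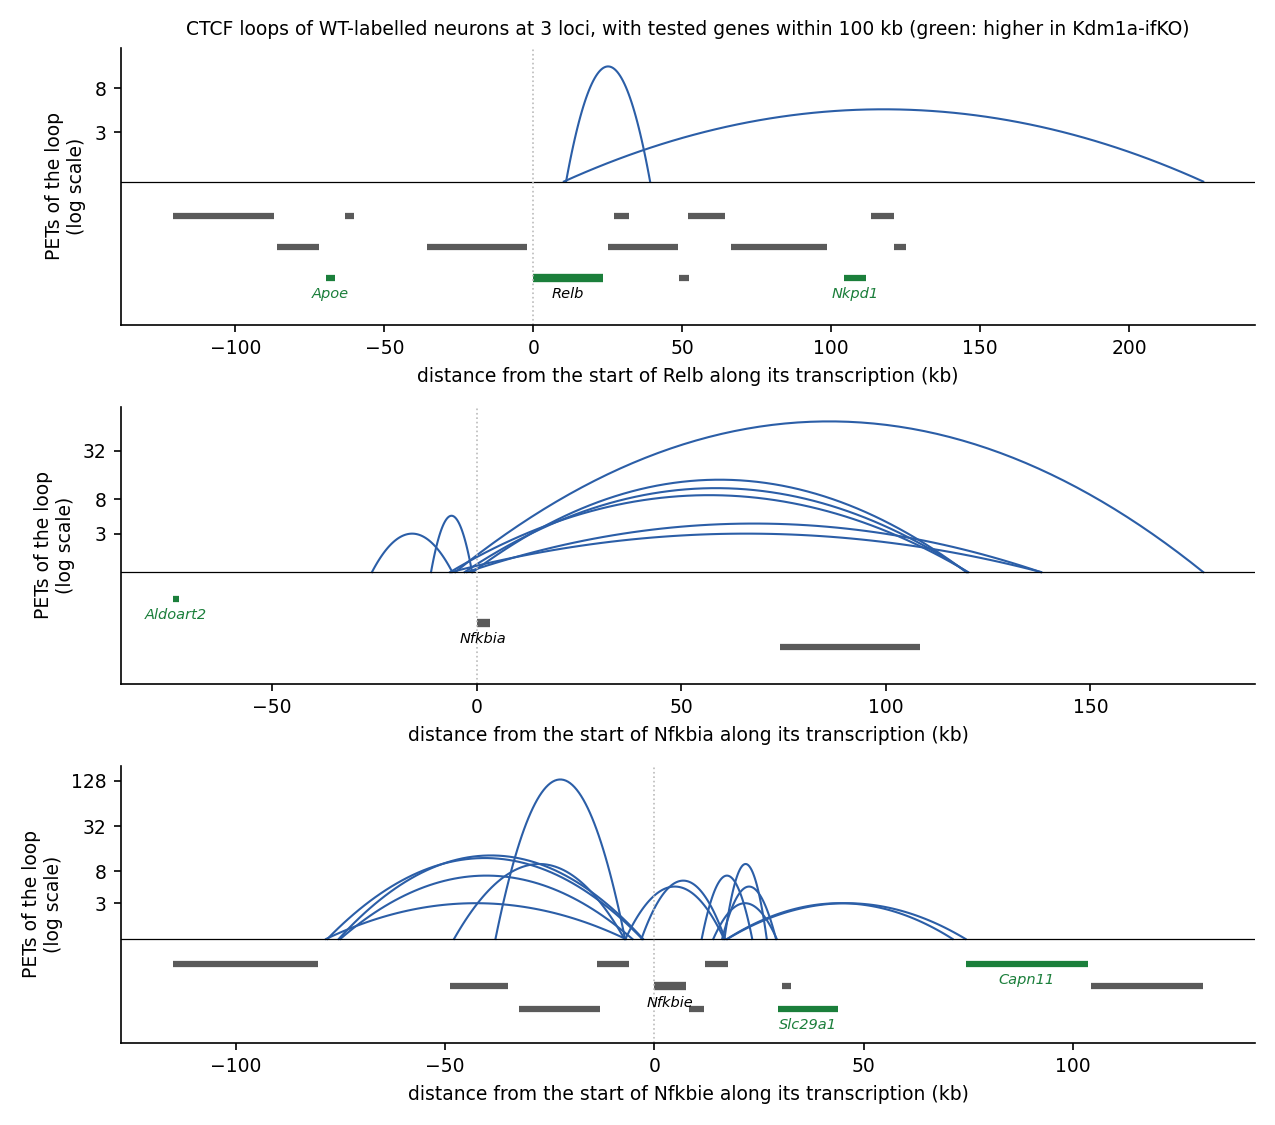
CTCF loops of the neurons labelled WT as arcs over the distance from the start of Relb, Nfkbia and Nfkbie in kb along transcription, with height for PETs on a log scale and bars for tested genes within 100 kb, green where higher in Kdm1a-ifKOs. Relb has 2 arcs, of 13 and 5 PETs, while the highest arcs at Nfkbia (74 PETs) and Nfkbie (134 PETs) reach away from the green genes.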

How the data were processed

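RNA-seq counts of 3 control and 3 Kdm1a-ifKO hippocampi and CTCF loops of 1 ChIA-PET library of neurons labelled WT were used. The authors made the counts from single-end poly-A reads with cutadapt 1.18, HISAT2 2.1.0 on GRCm38 (mm10), a filter on mapping quality and HTSeq 0.11.1, and the deposited values are whole-number counts per Ensembl gene without normalization. The PET counts of loops are deposited as the authors' ChIA-PIPE calls of at least 3 PETs with a CTCF peak at both anchors, so the depth before calling is unknown. The strand setting of the counting is not given in the sources used here.

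Symbols and positions came from GENCODE M21 (48435 of 48795 identifiers matched). After filterByExpr and TMM scaling, genotypes were compared by the robust quasi-likelihood F test of edgeR 4.0.16 under R 4.3.3, with Benjamini-Hochberg adjustment over 16799 tested genes and a threshold of 0.05. Confidence intervals cover 95% and come from the same fit. TPM used summed exon lengths. Exact permutation tests of single values cannot give a p under 0.1. On simulated counts for this comparison, 16620 genes were tested, the changed ones included. The test recovered 69% of 100 genes changed by 0.5 and 97.0% of 99 changed by 1 on the log2 scale, with 10 false calls. These counts were drawn with the spread fitted as a trend over genes, not with each gene's own spread, so recovery in the real data may differ. Libraries held 18985542 to 19469947 counts. Python 3.11.15, scipy 1.17.1 and pandas 2.3.3 were used for the rest.

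The genes and lists were chosen with earlier results of these data known. Named by rule are all 10 genes, listed or neighbouring genes with an adjusted p under 0.05 and genes at 0 in all libraries. Extremes of a list without a call and called or strongest loop partners are named as well. Other names, among them Tnf, Il6, Ccl2, Ttr, Ms4a1 and Cd3e, were chosen after their values were seen. Some listed marker genes are not reported here. Alternatives were DESeq2 1.42.0, its size factors in edgeR, upper-quartile normalization, 2 other filters on low counts, a replicate block, each library left out in turn, other distances and PET minimums and, chosen after seeing the data, control replicate 3 and Kdm1a-ifKO replicate 2 left out together.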

Additional observations from a re-analysis of the deposited data

How the results depend on the processing

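Relb was the single called gene of the 10 under every setting run, with no change of sign, while the count over all genes moved: 1487 were called, against 2537 without a filter on low counts (1447 higher and 1090 lower) and 783 to 1460 with 1 library left out, the lowest without Kdm1a-ifKO replicate 3, followed by 899 without Kdm1a-ifKO replicate 1. Without both control replicate 3 and Kdm1a-ifKO replicate 2, chosen after seeing the data, it was 1599. Leaving out 1 library gave 3 to 5 called pathway genes, 3 to 6 targets, 6 to 9 neighbours within 100 kb and 1 of the 10 core genes. Neighbours called were 3 within 50 kb and 13 within 250 kb. In CPM, which favours long genes, 1 of the 10 genes kept its rank by TPM. Anchors overlapping the gene body left 4 genes with a loop in place of 7, and Nfkbia, Nfkbie and Chuk were lost. Loops of at least 10 PETs also left 4. The log2 differences of the ratios ran from 0.28 to 0.44 for Relb to Rela, from 0.30 to 0.41 for alternative to canonical subunits and from -0.35 to -0.19 for inhibitors to subunits with 1 library left out.

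Same-numbered libraries of the 2 genotypes did not deviate together (correlations of -0.03, -0.09 and -0.15), so the numbers were not taken as pairs, and no library correlated best with its own number. With a replicate block, 1046 genes, 1 core gene, 4 pathway genes, 6 targets and 8 neighbours were called. The ratio differences of 0.38, 0.36 and -0.28 cannot change with such a block, as the replicate numbers are balanced over the genotypes. With 3 libraries a group and 49 to 56 counts per control library, the interval of Nfkbie was wide, and a change within it could have been missed. The cause of the calls lost was not tested.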
